A study of Mus musculus with 6 samples.

Results

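The ADAM and ADAMTS proteases described here are 10 genes, Adamts1, Adamts2, Adamts4, Adamts5, Adamts9, Adamts10, Adamts12, Adamts15, Adam12 and Adam19. They were taken by gene symbol from a table of 38896 genes, in which they hold 48 of the 120299 listed transcripts. The study compared 2 groups of primary mouse colonic fibroblasts, 3 cultures labelled DSS and 3 labelled Ctrl. Cells were taken from distal colons at 6 weeks of age and passaged 2 times. They were then kept for 24 h in conditioned medium, which was inflammatory in one arm and control in the other. DSS usually stands for dextran sulfate sodium, which causes colitis in mice. The libraries so labelled are taken as the cultures in inflammatory medium, although the labels carry this under a genotype tag. The sources used here do not say how the medium was made, or the strain and sex of the mice. Mice 1716, 1717 and 1718 each gave 1 DSS and 1 Ctrl culture, so all comparisons were paired by mouse. Each library is 1 culture of passaged cells outside their tissue, which limits it as a model of the colon wall.

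ADAM proteases are metalloproteases held in the cell membrane, where they cut the outer part off growth factors, cytokine receptors and adhesion proteins, a step called shedding. ADAMTS proteases are their secreted relatives, which carry thrombospondin repeats, bind the extracellular matrix and trim its proteoglycans, procollagens and microfibrils. Fibroblasts are the main source of many of them, and some members of both families are held in check by tissue inhibitors of metalloproteinases (TIMPs).

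Adamts12 and Adam12 fell most in DSS cultures, to levels 2.35-fold and 2.28-fold below those of Ctrl cultures. Adamts1 was 1.81-fold lower in DSS cultures, and the factor was similar in each of the 3 mice. Adamts2, Adam19 and Adamts10 were lower by small amounts, and Adamts9 was higher. Adamts4, Adamts5 and Adamts15 did not pass the test. In counts, 6 of the 10 genes fell and 1 rose in DSS cultures at an adjusted p under 0.05 in edgeR's quasi-likelihood test with the mouse as a block. Over the 19869 genes tested, the same fit called 12.7% lower and 12.3% higher. Without the block, 3 of the 10 fell and 1 rose, against 5.91% lower and 7.37% higher over all genes. The median log2 fold change of the 10 genes was -0.25, beside 0.01 over all genes tested. All 10 genes passed the filter on low counts.

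Levels are given in CPM, counts relative to the library total after scaling by edgeR's TMM factors, as the mean ± SD of 3 libraries unless a library is named, and changes as the log2 fold change of DSS over Ctrl with its standard error (SE). The libraries held 17293680 to 17931239 estimated counts in DSS cultures and 17734405 to 19482938 in Ctrl cultures. Fibroblast genes dominated both groups: the 9 fibroblast markers summed to 20128 to 24719 CPM in DSS and 37349 to 44062 CPM in Ctrl cultures, with 6 of them lower and 2 higher in DSS. The 5 lymphocyte markers, and 5 of 6 epithelial markers, Epcam among them, stayed under 1 CPM in every library. The 7 macrophage markers were present, at 1236 to 2042 CPM summed in DSS and 1942 to 2818 CPM in Ctrl cultures, with 4 lower and 1 higher in DSS. The 4 markers of enteric glia summed to 59.4 to 261 CPM in DSS and 95.8 to 323 CPM in Ctrl cultures. The 5 smooth muscle markers summed to 1169 to 1358 CPM in DSS and 1588 to 1617 CPM in Ctrl cultures, with 3 lower and 1 higher. Neutrophil, endothelial, mesothelial and interstitial Cajal cell markers summed to at most 27.9 CPM in each library. In such bulk RNA, fewer cells of a type and less RNA per cell cannot be told apart. The part of any of these cell types in the results on the proteases was not tested.

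**Figure D1:**
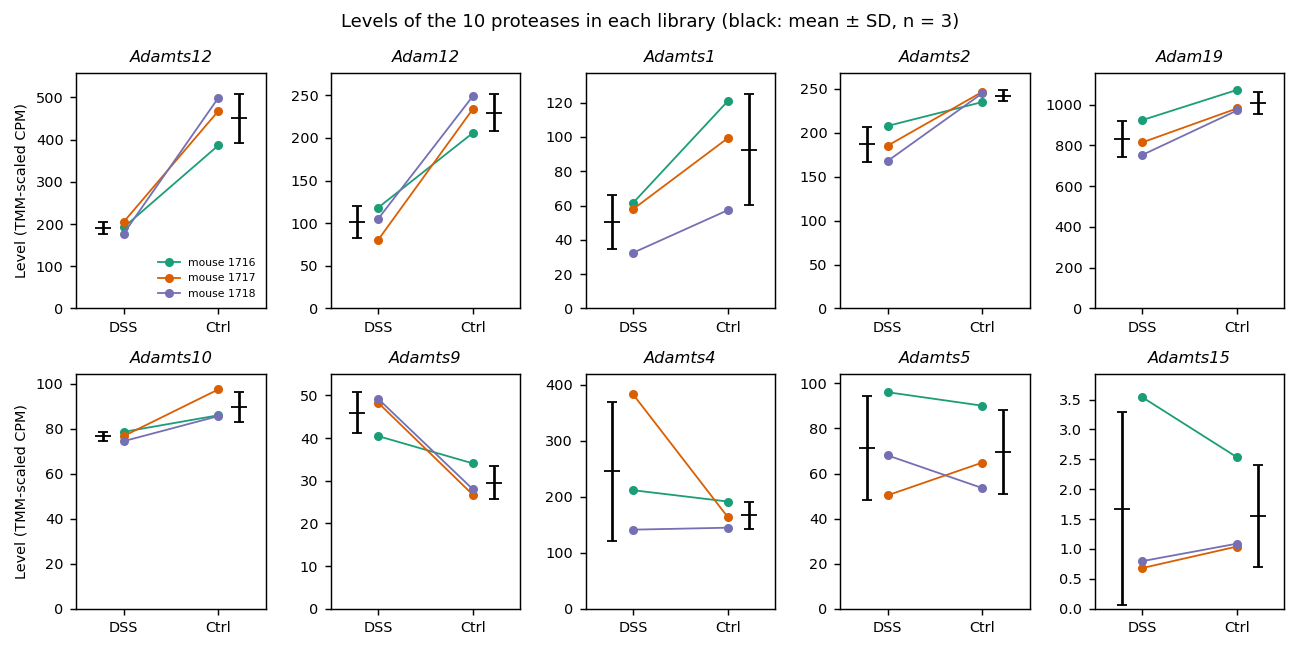
Level of each of the 10 proteases in TMM-scaled CPM, with DSS left and Ctrl right. Each line joins the cultures of 1 mouse, and the black bars are the mean ± SD of 3 libraries. All 3 lines of Adamts12, Adam12, Adamts1, Adamts2, Adam19 and Adamts10 are lower in DSS, all 3 of Adamts9 are higher, and those of Adamts4, Adamts5 and Adamts15 run in both directions.

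The promoters of the gene that fell most (Adamts12), of a gene that fell and that the block is needed to call (Adamts1) and of the gene that rose (Adamts9) are printed to show their motifs and CG dinucleotides. Each window runs from 250 bases before to 50 bases after the RefSeq start on GRCm38.p6, on the gene's own strand, and lies at chr15:11064523-11064822 (plus strand) for Adamts12, chr16:85803064-85803363 (minus strand) for Adamts1 and chr6:92943485-92943784 (minus strand) for Adamts9. The windows of Adamts12 and Adamts1 sit at the annotated 5' ends of the genes. That of Adamts9 lies inside the gene, whose 5' end on the minus strand is at 92944450. Capitals mark matches to a TATA box (TATAAA) or a GC box (GGGCGG), on either strand.
Adamts12: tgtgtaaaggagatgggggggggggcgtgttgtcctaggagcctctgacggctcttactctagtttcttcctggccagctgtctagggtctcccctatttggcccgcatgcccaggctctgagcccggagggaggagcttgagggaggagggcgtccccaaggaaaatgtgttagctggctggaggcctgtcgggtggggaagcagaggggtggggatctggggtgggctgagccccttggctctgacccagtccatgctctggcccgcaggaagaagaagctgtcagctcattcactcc
Adamts1: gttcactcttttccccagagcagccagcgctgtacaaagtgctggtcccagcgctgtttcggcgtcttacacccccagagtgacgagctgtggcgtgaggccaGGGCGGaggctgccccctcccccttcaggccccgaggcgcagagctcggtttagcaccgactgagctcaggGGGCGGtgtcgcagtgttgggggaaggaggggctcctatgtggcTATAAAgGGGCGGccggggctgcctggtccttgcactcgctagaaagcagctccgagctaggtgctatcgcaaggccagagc
Adamts9: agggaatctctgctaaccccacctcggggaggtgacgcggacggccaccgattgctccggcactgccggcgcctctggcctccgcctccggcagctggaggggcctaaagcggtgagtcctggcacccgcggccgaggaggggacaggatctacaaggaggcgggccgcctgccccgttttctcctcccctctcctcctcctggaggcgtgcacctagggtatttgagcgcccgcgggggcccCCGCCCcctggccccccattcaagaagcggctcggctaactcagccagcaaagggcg
The Adamts1 window held 1 TATA box at position -32 from the start and 3 GC boxes, none of which overlapped another match. The Adamts9 window held 1 GC box, and the Adamts12 window held neither motif. Among all 32851 windows in the RefSeq table, 13.6% held the TATA letters and 35.7% the GC box. The windows contained 7 CG dinucleotides for Adamts12, 18 for Adamts1 and 25 for Adamts9, beside a median of 7 over all windows. Their GC content was 62%, 64.7% and 70% in the same order, all above the median of 52.7% over all windows. None of the 3 windows held the AP-1 motif TGANTCA, the interferon-type GAS motif TTCNNNGAA or the hypoxia response core ACGTG, which occurred in 7.81%, 8.3% and 19.6% of all windows. These are matches of letters in 300 bases and were not measured as binding. Only a first part of the 50 bases after the start was searched for in GENCODE transcripts. It was found for Adamts1 and not for Adamts12 or Adamts9. In all, 5 of the 10 genes were matched to the table. One of the 3 windows of Adam19 held an AP-1 motif at position -131, and the single window of Adamts2 held 5 GC boxes. Windows of Adam12, Adamts4, Adamts5, Adamts10 and Adamts15 were not used here.

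Adamts12 encodes a secreted protease known to cut cartilage oligomeric matrix protein. The gene lies on chromosome 15 at 11064773 to 11349232 (GRCm38, plus strand) and has 1 listed transcript. Its level was 192, 205 and 177 CPM in the DSS cultures of mice 1716, 1717 and 1718, against 386, 468 and 499 CPM in their Ctrl cultures. Every DSS library lay below every Ctrl library, and the DSS libraries were close together. The mean was 191 ± 13.8 CPM in DSS and 451 ± 58.1 CPM in Ctrl cultures, a log2 fold change of -1.23 ± 0.09 (adjusted p = 0.000208). Within mice the log2 ratio was -1.01, -1.19 and -1.49. The call was made in every alternative fit and with any mouse or library left out, with log2 fold changes of -1.34 to -1.11. Its closest relative in the family, Adamts7, which cuts the same protein, was higher in DSS, at 113 ± 4.45 CPM against 67.1 ± 7.76 CPM in Ctrl cultures (log2 fold change 0.76 ± 0.09, adjusted p = 0.000929). Adamts7 likewise did not overlap between the groups, in the other direction. Their shared substrate Comp stood at 1.08 CPM or lower in every library and was not tested.

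Adam12, also called meltrin alpha, is a membrane protease that can release heparin-binding EGF and, in its secreted human form, cuts insulin-like growth factor binding proteins. It lies on chromosome 7 at 133883199 to 134225097 (minus strand). Its level was 118, 80.6 and 105 CPM in the DSS cultures, against 206, 234 and 249 CPM in the Ctrl cultures, in the same order of mice. All DSS libraries lay below all Ctrl libraries, and mouse 1717 showed the widest gap. The log2 fold change was -1.19 ± 0.13 (101 ± 19.2 CPM in DSS, 230 ± 21.95 CPM in Ctrl cultures, adjusted p = 0.000719), and the log2 ratio was -0.80, -1.54 and -1.24 within mice. Like that of Adamts12, this call was made in every alternative fit and with any mouse or library left out.

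Adam19, meltrin beta, sheds neuregulins and took the most counts of the 10 genes in both groups. It lies on chromosome 11 at 46054502 to 46147347 (plus strand). Its level was 925, 815 and 754 CPM in the DSS cultures, against 1073, 982 and 972 CPM in the Ctrl cultures. Each DSS library lay below each Ctrl library, by a narrow margin between the DSS culture of mouse 1716 and the Ctrl culture of mouse 1718. The log2 fold change was -0.28 ± 0.06 (831 ± 86.5 CPM in DSS, 1009 ± 55.7 CPM in Ctrl cultures, adjusted p = 0.0153 with the block and 0.107 without it). The adjusted p was 0.0685 without mouse 1717 and 0.101 without mouse 1718. Exons of Adam19 overlap 2 genes on the other strand, Gm16033 over 587 bases and Gm16034 over 480 bases, for which no value is used here.

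The 5 listed transcripts of Adam19 were estimated to share its counts unequally between the groups. The most abundant transcript took 56.6%, 61.3% and 60.2% of Adam19 counts in the DSS cultures, against 69.7%, 73.0% and 67.1% in the Ctrl cultures. The next transcript took 26.8%, 25.4% and 23.6% in the DSS cultures, against 19.3%, 16.9% and 20.1% in the Ctrl cultures. The groups did not overlap in either share, but both are parts of the same total. How often the transcript shares of other genes separate in this way was not counted. Both entries, like the next most abundant one, were matched to the same GENCODE length of 6383 bases. Their sequences were not compared, so what the division rests on was not tested. An edgeR fit over single transcripts called 0 of 48402 at an adjusted p under 0.05, with 5952 at an unadjusted p under 0.05. That fit recovered 12% of simulated transcripts changed 4-fold, so it could show little, and these shares are a description without a test. Adamts10 has 29 listed transcripts, Adamts9 has 4, Adamts15 has 3 and Adamts2 has 2, and their values here are gene sums.

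**Figure D2:**
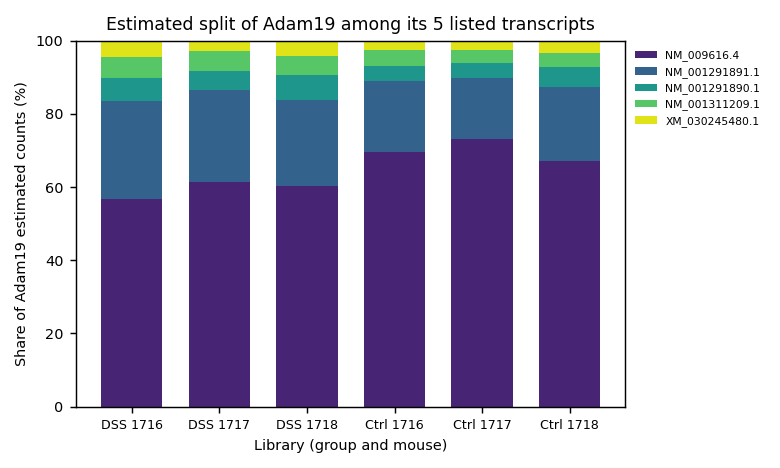
Share of Adam19 estimated counts (%) given to each of its 5 listed RefSeq transcripts, 1 bar per library, with the 3 DSS libraries left of the 3 Ctrl libraries. The lowest segment, the most abundant transcript, reaches 56.6 to 61.3% in DSS and 67.1 to 73.0% in Ctrl libraries.

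The genes Adamts1, Adamts4, Adamts5, Adamts9 and Adamts15 belong to the group known to cut versican and aggrecan, the large proteoglycans that bind hyaluronan. Of these 5, 1 was lower, 1 higher and 3 did not pass the test, beside 12.7% lower and 12.3% higher over all genes tested. Adamts1 had 61.5, 57.8 and 32.4 CPM in the DSS cultures of mice 1716, 1717 and 1718, against 121, 99.2 and 57.3 CPM in their Ctrl cultures. The groups overlapped, because cultures of mouse 1718 were low and those of mouse 1716 high in both media, while each DSS culture lay well below the Ctrl culture of its own mouse. The log2 ratio within mice was -0.98, -0.78 and -0.82, and the blocked fit gave -0.86 ± 0.06 (50.6 ± 15.8 CPM in DSS, 92.4 ± 32.3 CPM in Ctrl cultures, adjusted p = 0.000184). Without the block the adjusted p was 0.115. With the block the call was made with any mouse left out.

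Adamts9 was the gene that rose. It is a versican-cutting protease that is also known to be needed for the assembly of primary cilia in cultured cells, and it lies on chromosome 6 at 92772699 to 92944450 (minus strand). Its level was 40.5, 48.2 and 49.2 CPM in the DSS cultures, against 34.1, 26.7 and 27.97 CPM in the Ctrl cultures. All DSS libraries lay above all Ctrl libraries, with the smallest gap in mouse 1716. The log2 fold change was 0.64 ± 0.12 (46.0 ± 4.79 CPM in DSS, 29.6 ± 3.93 CPM in Ctrl cultures, adjusted p = 0.00772 with the block and 0.0134 without it). In the fit without the block, the adjusted p was 0.0582 without the Ctrl library of mouse 1717 and 0.0542 without that of mouse 1718. Exons of Adamts9 overlap 2 genes on the other strand, A730049H05Rik over 1381 bases and Gm15737 over 424 bases. A730049H05Rik did not pass the test, at 4.93 ± 2.16 CPM in DSS and 4.03 ± 0.334 CPM in Ctrl cultures (log2 fold change 0.25 ± 0.24, adjusted p = 0.513). Gm15737 was higher in DSS, at 2.62 ± 0.312 CPM against 1.21 ± 0.146 CPM in Ctrl cultures (log2 fold change 1.11 ± 0.21, adjusted p = 0.00886). The libraries were directional, but the sources used here do not say whether strand was used in counting, so the reads of the overlap cannot be told apart.

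Adamts4, an aggrecanase known to be induced by inflammatory cytokines in cartilage, lies on chromosome 1 at 171250129 to 171262267 (plus strand). It had 212, 383 and 141 CPM in the DSS cultures, against 191, 164 and 145 CPM in the Ctrl cultures. One DSS culture, that of mouse 1717, stood far above the other 5 libraries, which overlapped. The log2 fold change of 0.44 ± 0.22 did not pass the test (245 ± 124 CPM in DSS, 167 ± 23.5 CPM in Ctrl cultures, adjusted p = 0.186). It was 0.055 without mouse 1717 and 0.675 without mouse 1718 in the blocked fit, and in the fit without the block it was 0.081 without the DSS library of mouse 1717 and 0.83 without that of mouse 1718, with the test passed in none of these. The macrophage markers summed highest in the cultures of mouse 1717 in both groups, at 2042 CPM in DSS and 2818 CPM in Ctrl, and their part in this value was not tested.

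Adamts5, the other main aggrecanase, had 96.1, 50.3 and 68.1 CPM in the DSS cultures, against 90.1, 64.9 and 53.5 CPM in the Ctrl cultures. Mouse 1716 was highest in both groups, and the mice differed in direction (log2 fold change 0.03 ± 0.12, adjusted p = 0.903). Adamts5 and Adamts1 lie side by side on the minus strand of chromosome 16, at 85858157 to 85901125 and 85793827 to 85803113, with 55.0 kb between them. The difference between their changes was not tested. Adamts15, on chromosome 9 at 30899155 to 30922452 (minus strand), was scarcely detected, at 3.54, 0.681 and 0.797 CPM in the DSS cultures, against 2.53, 1.04 and 1.09 CPM in the Ctrl cultures (log2 fold change 0.03 ± 0.28, adjusted p = 0.949). Its highest value in each group came from mouse 1716, and 12 to 62 counts per library leave a change of this gene hard to detect.

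Adamts2 removes the amino-terminal propeptide of procollagens, and its loss in humans causes a fragile-skin form of Ehlers-Danlos syndrome. The gene lies on chromosome 11 at 50602085 to 50807573 (plus strand). Its level was 208, 185 and 168 CPM in the DSS cultures, against 235, 247 and 245 CPM in the Ctrl cultures. The Ctrl libraries were nearly equal and all DSS libraries lay below them. The log2 fold change was -0.38 ± 0.08 (187 ± 19.99 CPM in DSS, 242 ± 6.31 CPM in Ctrl cultures, adjusted p = 0.0119 with the block and 0.0318 without it). The adjusted p was 0.0722 without mouse 1718, and in the fit without the block it was 0.0658 to 0.108 when any 1 library other than the DSS library of mouse 1716 was left out.

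Adamts10 binds fibrillin microfibrils, and its loss in humans causes Weill-Marchesani syndrome. It lies on chromosome 17 at 33523646 to 33553782 (plus strand). Its level was 78.6, 76.7 and 74.4 CPM in the DSS cultures, against 85.9, 97.4 and 85.6 CPM in the Ctrl cultures. The groups did not overlap, but the gap was small. The log2 fold change was -0.23 ± 0.06 (76.6 ± 2.07 CPM in DSS, 89.7 ± 6.74 CPM in Ctrl cultures, adjusted p = 0.0377). Of the 7 calls this was the one lost under the most alternatives: the adjusted p was 0.0849 without the block, 0.131 with DESeq2, 0.0563 with library totals in place of TMM and 0.0526 with no filter on low counts. It was also 0.196 without mouse 1717 and 0.126 without mouse 1718. The nearest relative of Adamts10, Adamts6, was lower as well, at 172 ± 2.66 CPM in DSS and 244 ± 25.8 CPM in Ctrl cultures (log2 fold change -0.50 ± 0.07, adjusted p = 0.00267).

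**Figure D3:**
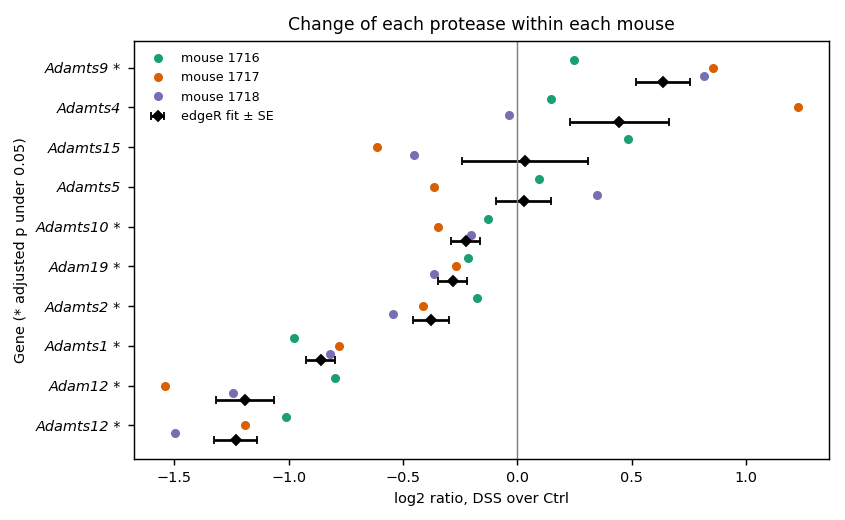
Change of each protease on the log2 scale, DSS over Ctrl. Coloured points are the ratios within each mouse, black diamonds the edgeR fit with its SE, and an asterisk marks an adjusted p under 0.05. The 3 points of Adamts1 lie between -0.98 and -0.78, and those of Adamts4 spread from -0.04 to 1.22.

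Of the 6 genes that fell, all but Adamts1 had every DSS library below every Ctrl library, as had 16.5% of all genes tested, and Adamts9 had every DSS library above, as had 17.7%. Summed over the 10 genes, the level was 1934, 1903 and 1570 CPM in the DSS cultures, against 2425, 2383 and 2335 CPM in the Ctrl cultures.

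Levels of different genes can be compared only per length, which was possible for 7 of the 10, those with at least 90% of their counts on a transcript of known GENCODE length. In CPM per kilobase, DSS cultures held 130 ± 13.6 of Adam19, 55.9 ± 28.4 of Adamts4, 25.7 ± 2.75 of Adamts2, 22.3 ± 1.61 of Adamts12, 13.2 ± 2.50 of Adam12, 10.4 ± 3.24 of Adamts1 and 6.63 ± 2.14 of Adamts5. Ctrl cultures held 158 ± 8.72 of Adam19, 52.5 ± 6.78 of Adamts12, 38.0 ± 5.36 of Adamts4, 33.3 ± 0.868 of Adamts2, 29.9 ± 2.86 of Adam12, 18.9 ± 6.62 of Adamts1 and 6.44 ± 1.73 of Adamts5. Adamts12 stood above Adamts4 and Adamts2 in Ctrl cultures and below both in DSS cultures. Within 1 SD on either side, Adamts4 and Adamts2, Adamts2 and Adamts12, Adam12 and Adamts1, and Adamts1 and Adamts5 were not apart in DSS cultures. In Ctrl cultures this held for Adamts4, Adamts2 and Adam12, each with both others.

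The genes whose levels followed those of Adamts12 most closely over the 6 libraries were Rrbp1, a ribosome-binding protein of the endoplasmic reticulum (Pearson r of log2 CPM 0.999), the actin crosslinker Actn1 (0.999) and the RNA-binding protein Hdlbp (0.998). Rrbp1 was at 289 ± 5.14 CPM in DSS and 392 ± 15.3 CPM in Ctrl cultures, a smaller difference than that of Adamts12. Of 12563 candidate genes, 486 (3.87%) had an r over 0.95. All points come from the same 6 libraries and 1 contrast, so these values are a description.

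Beyond the 10 genes, the families and their partners were described in 9 lists. The counts of every list stand beside 12.7% lower and 12.3% higher over all genes tested. Without the block these shares were 5.91% and 7.37%. Of 8 other ADAMTS genes tested, 3 fell and 1 rose (2 and 1 without the block), with a median log2 fold change of -0.47. Adamts16 stood out in size: it had 3, 5 and 2 counts in the DSS cultures of mice 1716, 1717 and 1718, against 107, 136 and 136 counts in their Ctrl cultures. That is 0.190 ± 0.0865 CPM in DSS and 6.89 ± 1.28 CPM in Ctrl cultures, with a fitted log2 fold change of -5.13 ± 0.26 (adjusted p = 5.06e-05) whose size rests on the few counts of the DSS cultures. The gene was called in every alternative fit. Of 6 ADAMTS-like genes, which lack the protease domain, 2 fell and 1 rose (1 and 0 without the block). Thsd4, an ADAMTS-like protein that binds fibrillin, was at 19.8 ± 4.11 CPM in DSS and 34.7 ± 8.32 CPM in Ctrl cultures (log2 fold change -0.81 ± 0.06, adjusted p = 0.000252 with the block and 0.0377 without it). Without the block, its adjusted p was 0.0525 to 0.109 when any 1 library other than the DSS library of mouse 1716 was left out. Adamtsl4, a relative that also binds fibrillin, was at 59.9 CPM in DSS and 47.2 CPM in Ctrl cultures (adjusted p = 0.00966 with the block, 0.152 without it and 0.0835 without mouse 1718), and its log2 fold change of 0.35 was 0.20 without the block and the Ctrl library of mouse 1718. Adamtsl1 was called lower with the block and overlapped widely between the groups (log2 fold change -0.39 ± 0.11, adjusted p = 0.046 with the block, 0.818 without it, 0.09 without mouse 1717 and 0.171 without mouse 1718). Its sign turned, to 0.15 and 0.17, in the fits without the block that left out the DSS library of mouse 1718 or the Ctrl library of mouse 1716.

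Of 13 other ADAM genes, 2 rose and 1 fell (1 and 0 without the block), with a median of -0.03. Over all genes tested, 12.3% were higher and 12.7% lower with the block. Adam23, a family member without protease activity that binds integrins, was at 120, 145 and 186 CPM in the DSS cultures, against 52.1, 46.2 and 53.2 CPM in the Ctrl cultures. The groups were far apart, and the log2 fold change was 1.55 ± 0.11 (adjusted p = 0.000169). Adam11, also without protease activity, was lower within each mouse while its groups overlapped, at 7.04 CPM in DSS and 16.1 CPM in Ctrl cultures on average (log2 fold change -1.18 ± 0.13, adjusted p = 0.000821 with the block and 0.182 without it). Its log2 fold change was -0.77 in the fit without the block and without the Ctrl library of mouse 1716. Adam9, an active membrane protease, was at 328 ± 3.33 CPM in DSS and 285 ± 9.33 CPM in Ctrl cultures (log2 fold change 0.20 ± 0.06, adjusted p = 0.0368), a call that was lost without the block (0.0781), with DESeq2 (0.129) and without any 1 mouse (0.0711 to 0.199). The main sheddases Adam10 and Adam17, named after their values were seen, did not pass the test: Adam10 averaged 157 CPM in DSS and 173 CPM in Ctrl cultures, and Adam17 averaged 89.8 CPM in DSS and 81.7 CPM in Ctrl cultures.

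Among 9 tested proteoglycan substrates and their partners, 2 fell and 2 rose (1 and 0 without the block). The share over all genes tested was 12.7% lower and 12.3% higher with the block. Versican (Vcan), the substrate of Adamts1, Adamts4, Adamts5, Adamts9 and Adamts15, was at 282, 226 and 357 CPM in the DSS cultures, against 708, 611 and 936 CPM in the Ctrl cultures. It fell in every mouse by a similar factor (log2 fold change -1.38 ± 0.06, adjusted p = 3.47e-05). Aggrecan (Acan) had at most a few counts per library and was not tested. Decorin (Dcn), a small proteoglycan, was higher, at 2362 ± 335 CPM in DSS and 1708 ± 163 CPM in Ctrl cultures (log2 fold change 0.46 ± 0.07, adjusted p = 0.00385 with the block and 0.0557 without it). Its relative biglycan (Bgn) was lower, at 2451 CPM in DSS and 3021 CPM in Ctrl cultures (log2 fold change -0.29 ± 0.07, adjusted p = 0.0218 with the block, 0.173 without it, 0.109 without mouse 1717 and 0.125 without mouse 1718).

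Among 9 tested procollagens and procollagen-processing genes, 7 fell and 0 rose, with or without the block, with a median log2 fold change of -0.75 beside the -0.38 of Adamts2. Col5a1, the main chain of collagen V, was at 1407 ± 212 CPM in DSS and 3363 ± 198 CPM in Ctrl cultures (log2 fold change -1.27 ± 0.11, adjusted p = 0.00032). Its partner chain Col5a2 was at 1848 CPM in DSS and 3633 CPM in Ctrl cultures (log2 fold change -0.98 ± 0.10, adjusted p = 0.00052). Pcolce, which enhances the removal of the carboxy-terminal propeptide, was at 111 CPM in DSS and 179 CPM in Ctrl cultures (log2 fold change -0.68 ± 0.07, adjusted p = 0.000825). Of 9 microfibril genes, 5 fell and 2 rose (3 and 0 without the block). Fibrillin-1 (Fbn1), the partner of Adamts10, was at 1283 ± 216 CPM in DSS and 3116 ± 712 CPM in Ctrl cultures (log2 fold change -1.27 ± 0.09, adjusted p = 0.000184). Mfap5, a small protein of the same fibrils, had a log2 fold change of -0.90 ± 0.08 (adjusted p = 0.000303). Ltbp2, a fibrillin-binding protein, was at 763 CPM in DSS and 1291 CPM in Ctrl cultures (log2 fold change -0.73 ± 0.11, adjusted p = 0.00368). Without the block its adjusted p was 0.0543 to 0.0712 without any 1 DSS library or the Ctrl library of mouse 1718.

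Of 7 inhibitors and clearance receptors, 3 fell and 1 rose (2 and 0 without the block). Timp3, the TIMP that binds the matrix and inhibits ADAMTS4, ADAMTS5 and several ADAMs, was at 161, 137 and 158 CPM in the DSS cultures, against 427, 430 and 472 CPM in the Ctrl cultures. The groups were widely separated, with a log2 fold change of -1.54 ± 0.07 (adjusted p = 3.6e-05). Syndecan-4 (Sdc4), a cell-surface proteoglycan known to bind Adamts5, was at 299 CPM in DSS and 221 CPM in Ctrl cultures (log2 fold change 0.44 ± 0.06, adjusted p = 0.00167 with the block and 0.0655 without it). Timp1 had a log2 fold change of -0.33 ± 0.07 (adjusted p = 0.0123 with the block and 0.245 without it), with an adjusted p of 0.0686 without mouse 1717 and 0.073 without mouse 1718, and -0.15 in the fit without the block and without the Ctrl library of mouse 1717.

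Of 11 activators and partners of ADAM and ADAMTS proteases, 2 rose and 2 fell (1 and 0 without the block). With the block, 12.3% of all genes tested were higher and 12.7% lower. Tspan17, a tetraspanin that escorts Adam10, was at 42.9 CPM in DSS and 28.6 CPM in Ctrl cultures (log2 fold change 0.59 ± 0.07, adjusted p = 0.001). Frmd8, which stabilises the Adam17 complex at the cell surface, was at 90.4 CPM in DSS and 73.6 CPM in Ctrl cultures (log2 fold change 0.30 ± 0.05, adjusted p = 0.00691 with the block, 0.151 without it and 0.0642 without mouse 1718). The proprotein convertase Pcsk5 was lower, at 48.4 CPM in DSS and 59.6 CPM in Ctrl cultures (adjusted p = 0.00905 with the block and 0.22 without it), and its log2 fold change of -0.30 was -0.16 without the block and the Ctrl library of mouse 1717. Of 8 shed ligands and binding proteins of insulin-like growth factors, 2 rose and 0 fell in either fit. Igfbp3, a substrate of human ADAM12, was at 44.5 CPM in DSS and 17.5 CPM in Ctrl cultures (log2 fold change 1.35 ± 0.18, adjusted p = 0.0019). Igfbp5, named after its values were seen, did not pass the test and differed in direction among the mice. It averaged 221 CPM in DSS and 419 CPM in Ctrl cultures (log2 fold change -0.94 ± 0.31, adjusted p = 0.0651). Epiregulin (Ereg), an EGF receptor ligand released by shedding, had 214, 263 and 276 CPM in the DSS cultures, against 152, 74.2 and 97.9 CPM in the Ctrl cultures (log2 fold change 1.27 ± 0.22, adjusted p = 0.00627). Neither Igfbp3 nor Ereg overlapped between the groups. The adjusted p of Ereg in the fit without the block was 0.0528 to 0.0695 without the DSS library of mouse 1717 or 1718 or the Ctrl library of mouse 1718.

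**Figure D4:**
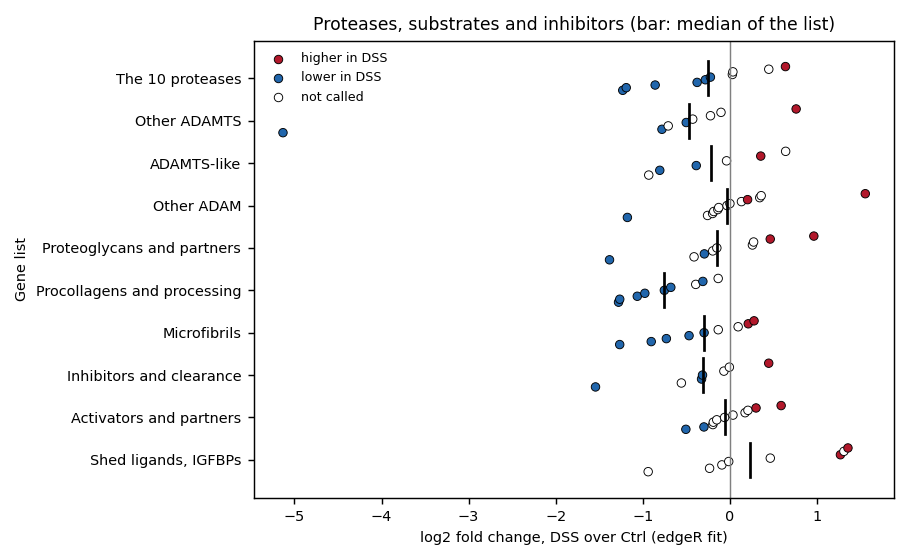
Log2 fold change of each tested gene, DSS over Ctrl, by list, with the 10 proteases on top. Red points are called higher in DSS, blue points lower and white points neither, and black bars are list medians. The 10 proteases run from -1.23 (Adamts12) to 0.64 (Adamts9), the other ADAMTS list reaches -5.13 (Adamts16), and the procollagen list holds 7 blue points and no red one.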

How the data were processed

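RNA from 6 cultures of mouse colonic fibroblasts (3 mice, 2 media) was depleted of ribosomal RNA, made into directional libraries for Illumina sequencing, per the labels' protocols. The authors deposited estimated counts per RefSeq transcript (expected counts, not scaled), made with kallisto on GRCm38 or mm10, per the submitters' processing notes. The sources used here do not give its version or settings. From 84.5 to 84.8% of values above 0 were not whole, at a tolerance of 1e-06. Depth was 17293680 to 19482938 estimated counts per library.

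The estimated counts were summed per symbol and rounded. The filter was filterByExpr with a minimum count of 10 and a minimum total of 15, and scaling was by TMM. Genes were tested with edgeR 4.0.16 (R 4.3.3, quasi-likelihood test, Benjamini-Hochberg over 19869 genes, threshold 0.05), with the mouse as a block. This blocked design departs from a group-only default because the genes were to be compared by mouse, and the group-only fit is given beside each call it changes. Deviations from the group means correlated with r = 0.4, 0.25 and 0.52 within mice 1716, 1717 and 1718, against -0.41 to 0.016 between mice. Because deviations sum to 0 within a group, positive values within mice push those between mice down, so these ranges are not independent. The common dispersion was 0.00649 with the block and 0.0196 without it. Tested on simulated data over 19869 genes in 1 draw, the blocked fit recovered 53.7% of 67 genes changed 1.5-fold, 74.6% of 67 changed 2-fold and 95.5% of 66 changed 4-fold, and 11.3% of its 168 calls were false, above the nominal share. The fit without the block was tested on a separate draw, with no mouse effect in its means and with that fit's own dispersions. There, 19.4%, 53.7% and 92.4% were recovered and 3.51% of 114 calls were false. Because the draws differ in setting, they do not measure what the block gains or costs on the same data. Each SE was obtained from the F statistic, as the absolute log2 fold change over its square root.

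The members, the lists and the tests were chosen with earlier results of these data known. The text names the 10 members and, in each list, up to 3 called genes with the smallest p. Promoters and motifs, and a fit over single transcripts, were chosen after the values were seen. The pseudocount of log2 CPM in the likeness and pairing checks was 0.5, and genes compared with Adamts12 had a mean of at least 5 CPM. Alternatives were the fit without the block, DESeq2 1.42.0, limma-voom (limma 3.58.1), RLE size factors, library totals alone, no filter, and leaving out each mouse or library. Annotation came from GENCODE and RefSeq on GRCm38.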

Additional observations from a re-analysis of the deposited data

How the results depend on the processing

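Over all genes 2447 were called higher and 2518 lower in DSS cultures, and 1 and 6 of the 10 proteases. The numbers were 1465 and 1174, and 1 and 3, with no replicate block, and 1470 and 1569, and 1 and 5, with DESeq2. RLE size factors, limma-voom, library totals alone and no filter gave counts within 1.5-fold of those of the TMM-scaled edgeR fit with the block. Of the genes in the 9 lists, 13 were called higher and 25 lower, against 5 and 16 with no replicate block. The pairing by mouse comes from the labels, and Adamts1, Adam19 and Adamts10 are the proteases called with the block and not without it. Leaving out 1 mouse (with the block) or 1 library (without it, where a lone sample's spread is pooled with the rest) gave 769 to 2304 genes higher and 580 to 2375 lower. It gave 0 to 1 proteases higher and 2 to 6 lower, and 4 to 16 list genes higher and 12 to 28 lower. Fewer samples enter each of these fits. The changes of Adamts5 and Adamts15, which pass no test, turned in sign: leaving out 1 mouse or library gave log2 fold changes of -0.23 to 0.27 for Adamts5 and -1.08 to 0.64 for Adamts15, and DESeq2 gave -0.14 for Adamts15. Adamtsl1, a called ADAMTS-like gene (-0.39), ran from -0.93 to 0.17, and the cause was not tested. Mean levels scaled by library totals moved by less than 1 SD in all 10 proteases. Depth limits what can be said of Adamts15 and of the DSS level of Adamts16.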
